A study of Chlamydomonas reinhardtii with 31 samples.

Results

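The expression of Chlamydomonas reinhardtii genes late in nitrogen starvation was compared between the starchless mutant sta6 and the strain CC-4349. The sample titles give CC-4349 no genotype, and its column names carry the code cw. The members are the 4 first-set sta6 libraries and the 4 first-set CC-4349 libraries taken at 8, 12, 24 and 48 h, 8 of 31 samples in all. They were chosen by the strain, the time and the set code in the labels. Chlamydomonas reinhardtii is a unicellular green alga. Both strains were grown in the light in TAP medium, which supplies acetate and ammonium, then washed and placed in the same medium without ammonium chloride at time 0. sta6 carries the strain number CC-4348. The first set follows both strains from 0 to 48 h, with 2 deposited columns per sample. The names of these columns end in 1 and 2 for CC-4349 and in 1 and 3 for sta6, so the pairs are not alike. A second set holds both strains at 0.5, 4 and 48 h with 1 column per sample. It also holds 3 independent STA6 strains, STA6-C2 (CC-4565), STA6-C4 (CC-4566) and STA6-C6 (CC-4567). They are treated here as rescued strains, that is sta6 with STA6 restored. The sample titles say only STA6. Every strain and time has 1 sample in a set. The 4 times thus stand in for replicates in the test of the strains. A gene passes on its mean paired difference against the spread over the times, without the same sign being required at each. The labels do not say whether the samples came from separate cultures, and the p-values measure only the spread between these samples. Each strain is 1 line, and the labels do not say in what else the lines differ.

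As background, STA6 encodes the small subunit of ADP-glucose pyrophosphorylase, the enzyme that makes the sugar donor for starch synthesis. Cells without nitrogen stop dividing and normally store carbon as starch and as oil in lipid droplets, while they break down part of the photosynthetic apparatus. A strain that cannot make starch stores its carbon in other forms. Neither the deposited table nor the reference pairs any gene ID with a symbol, so they give no gene a name or a role. Only Cre03.g188250 was given in the plan of the tests as the locus of STA6, which these sources do not annotate. No other gene is given a name or a role below. The pathway lists drawn up by symbol (starch, nitrogen assimilation, lipid droplet and others) could not be matched and were not tested. Genes are identified by ID, which carries the chromosome and the order along it. No sequence is shown, as the sources used here hold none.

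Values are FPKM, reads per gene scaled to gene length and sequencing depth, and were tested as log2(FPKM + 1). The pair of columns of each sample was averaged first. The 16 columns of the 8 libraries summed to between 552025 and 798613 FPKM, and 5.68% to 11.5% of the 17301 genes were listed at 0 in a column. Read depth is not given, so counting error cannot be stated. Repeat columns had a correlation across genes of 0.972 to 0.989 in sta6 and 0.966 to 0.987 in CC-4349, with a median gap of 0.20 and 0.18 (log2). The 2 strains' first-set columns did not use the same value for 1 read, even with the median ratio over genes removed. Among 246 genes for which it could be recovered, 8.94% then gave the same value in both within 0.01 (log2). For 4 of the 246 (1.63%) the ratio was past 1 and for 0 it was past 2. Among the genes called below it could be recovered for 6. The second set, handled alike, gave the sta6 value for 99.1% of 212 genes and the first-set CC-4349 value for 5.77% of 589. First-set strain differences can therefore hold a constant factor per gene, and a difference was called only above 1 (log2) with an adjusted p under 0.05 (limma, time as a block, Benjamini-Hochberg over all genes tested).

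Of 14729 genes tested, 551 were higher in sta6 at 8 to 48 h (3.74%) and 843 were lower (5.72%), 1394 in all (9.46%). The median difference over all genes tested was -0.29 (log2), so that the typical gene read lower in sta6. In the second set at 48 h it was -0.24. The balance of rises and falls depended on the scaling of the libraries. Quantile normalization, which moved the median to -0.05, gave 790 higher and 460 lower. Equal medians moved it to 0.03 and gave 1002 higher and 360 lower. Under all 3 scalings 889 genes (63.8%) were called the same way, 530 higher and 359 lower, so that 530 of the 551 rises and 359 of the 843 falls did not depend on this choice. In 490 of the 551 rises all 4 sta6 libraries lay above all 4 CC-4349 libraries, as they did for 9.71% of all genes tested. For 773 of the 843 falls all 4 lay below, against 38.8% of all genes tested. Just inside the bound lay differences of 1.00021 and -1.00022, and just outside it 0.999964 and -0.999222.

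**Figure D1:**
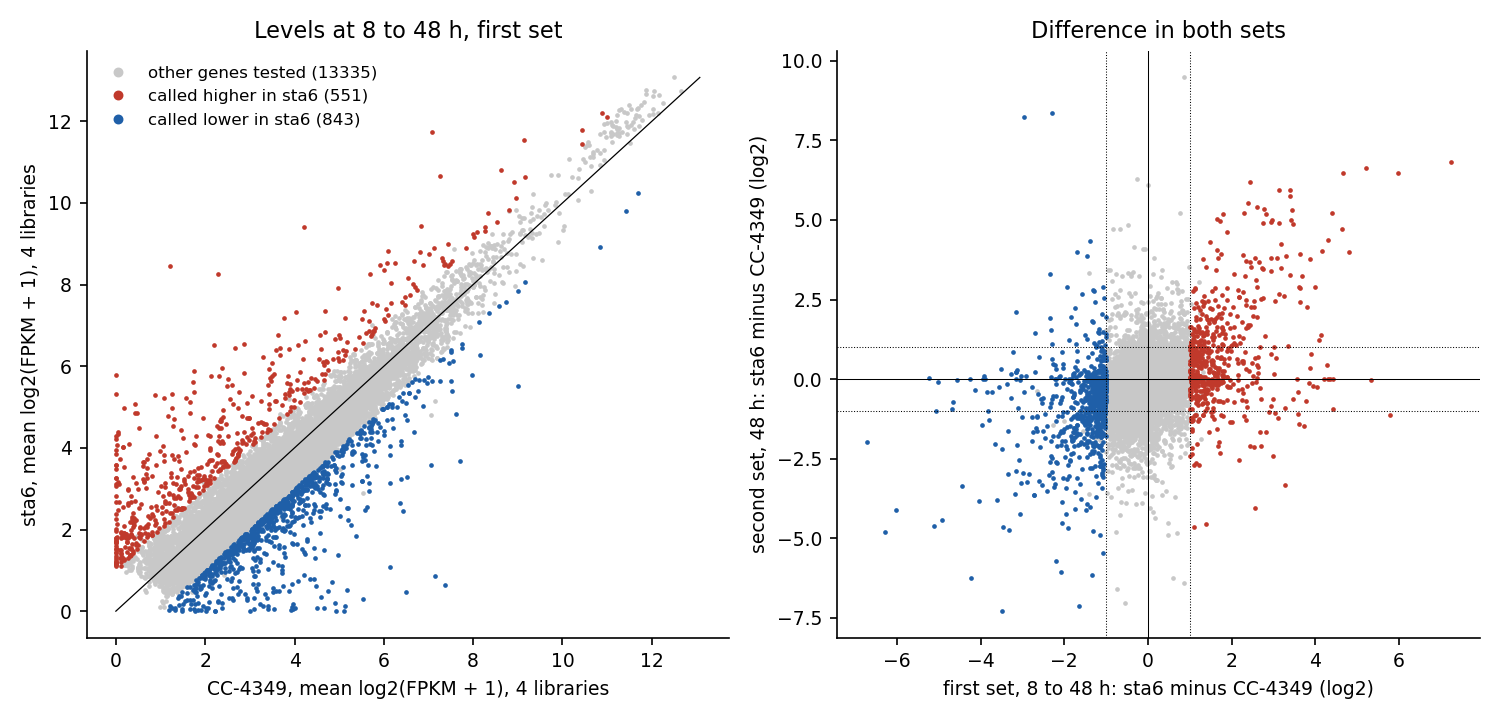
Left, mean level of each tested gene over 8, 12, 24 and 48 h in CC-4349 (x axis) and sta6 (y axis), both as log2(FPKM + 1) over 4 first-set libraries, with the 551 genes called higher in sta6 in red, the 843 called lower in blue and the line of equal levels. Right, the first-set difference at 8 to 48 h (x axis) against the second-set difference at 48 h (y axis), sta6 minus CC-4349 in log2, with dotted lines at a difference of 1; called genes spread from the quadrant of like sign to the zero line of the second set.

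The number of genes past 1 was counted at each time on its own. At 8, 12, 24 and 48 h, 655, 600, 745 and 784 genes were above 1 (4.45%, 4.07%, 5.06% and 5.32% of those tested), and 1139, 1257, 1137 and 1305 were below -1 (7.73%, 8.53%, 7.72% and 8.86%). Of the called genes, 1377 of 1394 had the same sign in all 4 pairs, which the call largely fixes. Among the rises 302 were past 1 at all 4 times and 85 past 2, and among the falls 366 and 73. Many of the differences were already there early: at 0 to 4 h the mean difference was past 1 in the same direction for 283 of the 551 rises (51.4%, against 3.56% of all genes tested) and for 408 of the 843 falls (48.4%, against 6.08%). A further 154 rises and 157 falls had an early difference under 0.5 or of the other sign. 

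Cre06.g283950 and Cre32.g781300 were the largest rises by the rule used for naming. Cre06.g283950 was at 407, 330, 313 and 347 FPKM in sta6 at 8, 12, 24 and 48 h. In CC-4349 it was at 7.17, 0.817 and 0.948 FPKM and was listed at 0 at 48 h. The groups did not overlap. At 0 to 4 h the transcript had been at 583 to 1344 FPKM in sta6 and 641 to 1490 in CC-4349. CC-4349 thus fell between 4 and 8 h to 7.17 FPKM or less. The late sta6 libraries also lay below every early one and averaged 34.2% of the 0 h level. The fitted difference was 7.23 ± 0.422 (SE, log2, limma adjusted p = 0.000258). Repeat columns of Cre06.g283950 were up to 1.52 (log2) apart in sta6 over the 4 times. The second set at 48 h had 397 FPKM in sta6 and 2.52 in CC-4349, with 106 to 248 in the 3 STA6 strains.

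For Cre32.g781300 the sta6 libraries had 405, 308, 324 and 221 FPKM. The CC-4349 libraries had 46.96, 3.58, 0.345 and 0.911. At 0 to 4 h it had been at 1233 FPKM or more in both strains, and at each later time the CC-4349 library lay below every sta6 library. The difference was 5.98 ± 0.744 (SE, log2, limma adjusted p = 0.00177), and the pairs ran from 3.08 at 8 h to 7.92 at 24 h. Repeat columns of this gene were up to 1.48 (log2) apart in sta6 over these times. At 48 h the second set gave 424 against 3.82 FPKM, and the STA6 strains 56.3 to 124.

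The largest falls were of another kind, since both were low in sta6 at 0 to 4 h as well. Cre04.g223100 stood at 0.694, 0.589, 0.669 and 0.340 FPKM in sta6. In CC-4349 it had 757, 449, 140 and 14.6 FPKM, a level that declined with time but stayed above every sta6 library. The difference was -6.72 ± 0.843 (SE, log2, limma adjusted p = 0.00180). Repeat columns were up to 2.03 (log2) apart in CC-4349, at 24 h. Cre04.g223100 had been at most 5.88 FPKM in sta6 at 0 to 4 h against 343 to 2848 in CC-4349. The second set at 48 h held 0.381 in sta6 and 4.45 in CC-4349, beside 3.77 to 9.88 in the STA6 strains.

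Cre03.g188250, given as the STA6 locus in the plan of the tests, changed less with time. Its sta6 values were 0.478, 0.767, 0.910 and 1.21 FPKM, a mean of 0.840 ± 0.302 (SD, n = 4 times). Its CC-4349 values were 124, 147, 156 and 136 FPKM, a mean of 141 ± 14.0 (SD, n = 4 times). The highest sta6 library lay far below the lowest of CC-4349. The difference was -6.28 ± 0.104 (SE, log2, limma adjusted p = 1.23e-05). In the second set at 48 h sta6 had 2.55 FPKM and CC-4349 98.2, while STA6-C2, STA6-C4 and STA6-C6 had 293, 108 and 138, all above CC-4349.

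**Figure D2:**
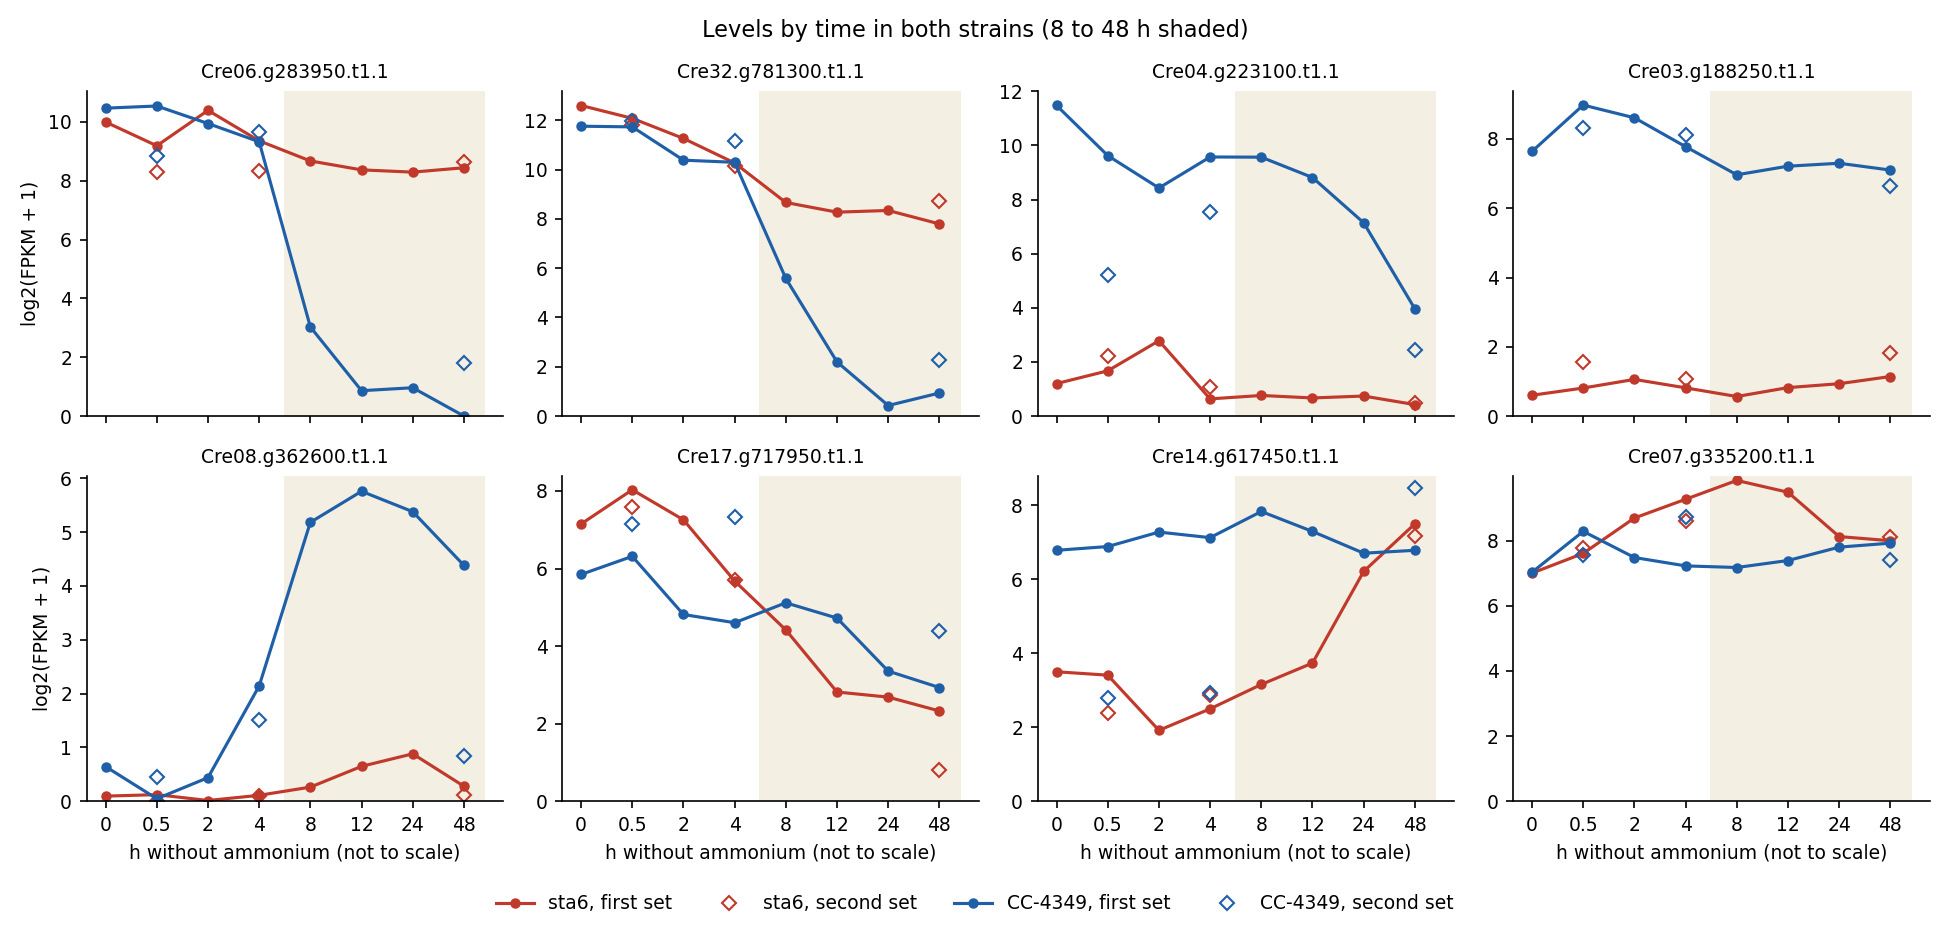
Level of 8 named genes, as log2(FPKM + 1), at each first-set time (x axis, h without ammonium, not to scale) in sta6 (red) and CC-4349 (blue), with the second-set libraries as open diamonds and 8 to 48 h shaded. Cre06.g283950 and Cre32.g781300 part after 4 h, Cre04.g223100 and Cre03.g188250 are apart at every time, and in the lower row the gap opens, turns or closes within the course.

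A large share of the first-set calls was not seen between the same strains in the second set. The second-set pair at 48 h was past 1 in the same direction for 207 of the 551 rises (37.6%, against 4.71% of all genes tested) and 308 of the 843 falls (36.5%, against 10.5%). It was past 1 in the opposite direction for 54 rises (9.8%, against 10.5% of all genes tested) and 43 falls (5.1%, against 4.71%), shares near those of all genes. The median second-set difference was 0.51 for the rises, which had a first-set median of 1.53, and -0.62 for the falls, which had -1.25. There is 1 library of each strain at 48 h in that set, so this is a description. Against the mean of the 3 STA6 strains at 48 h, sta6 was past 1 the same way for 33 rises (5.99%, against 1.16% of genes tested) and 67 falls (7.95%, against 1.68%). It was past 1 the other way for 23 rises (4.17%, against 1.68%) and 23 falls (2.73%, against 1.16%). These sta6 and second-set values share no library with the first set, but the comparisons with CC-4349 and with the STA6 strains share the second-set sta6 library.

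Some rises rest on zeros in CC-4349. Of the 551, 28 were listed at 0 in all 8 first-set CC-4349 libraries, and 12 of these had at least 1 FPKM in every second-set CC-4349 library. For the falls, 4 were listed at 0 in all 8 first-set sta6 libraries and 0 of them reached 1 FPKM in every second-set sta6 library. Leaving out the genes listed at 0 in all libraries of a strain gave 523 rises and 839 falls.

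Genes that were nearly absent in one strain were gathered by a fixed rule, under 1 FPKM in all 4 libraries of one strain and at least 10 FPKM in all 4 of the other, so that non-overlap follows from the rule. There were 15 under 1 in sta6 and 13 under 1 in CC-4349. The low strain was also under 1 at 0 to 4 h for 13 of the 15 and 10 of the 13. The second set separated each list. Of the 15, 5 kept the pattern at 48 h (CC-4349 at least 10, sta6 under 1), and 9 were under 1 in both strains, so that at 48 h high values were found in first-set CC-4349 but not in the second-set library. Of the 13, 3 kept the pattern, 8 were at least 10 FPKM in both strains and 10 at least 1 in both. The STA6 strains were all under 1 for 12 of the 15 and all at least 1 for 13 of the 13, as sta6 was.

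Cre03.g168150 and its neighbour in gene order Cre03.g168100 kept the pattern in both sets. Cre03.g168150 was listed at 0 in sta6 at all 4 times. In CC-4349 it had 31.8, 34.1, 34.3 and 33.9 FPKM. The second set at 48 h listed it at 0 in sta6 and in all 3 STA6 strains and gave 23.3 FPKM in CC-4349. Cre03.g168100 was likewise listed at 0 in sta6 and at 38.4, 29.8, 29.4 and 21.7 FPKM in CC-4349, with 20.3 in second-set CC-4349. The reverse case was Cre06.g299550, at 31.0, 32.9, 31.2 and 34.7 FPKM in sta6. CC-4349 had 0.222, 0.434, 0.498 and 0.249 FPKM, and no library of one strain came near the other. At 48 h the second set had 32.7 FPKM in sta6 against 0.286 in CC-4349, and 35.3 to 42.1 in the STA6 strains. The difference was 4.63 ± 0.0979 (SE, log2, limma adjusted p = 1.86e-05).

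Other members of these lists differed in the first set only. Cre06.g252900 was at 46.8, 33.2, 33.5 and 44.1 FPKM in sta6 and was listed at 0 in CC-4349 at all 4 times. In the second set at 48 h it had 14.4 FPKM in sta6 and 14.6 in CC-4349. Cre09.g406150 was at 0.541, 0.305, 0.0222 and 0.0756 FPKM in sta6 and at 69.8, 56.6, 38.1 and 27.3 in CC-4349, without overlap. In the second set it was at 0.0324 FPKM in sta6 and listed at 0 in CC-4349 and the STA6 strains. Whether the column groups' quantification or the cultures differ between the sets for such genes cannot be told apart.

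**Figure D3:**
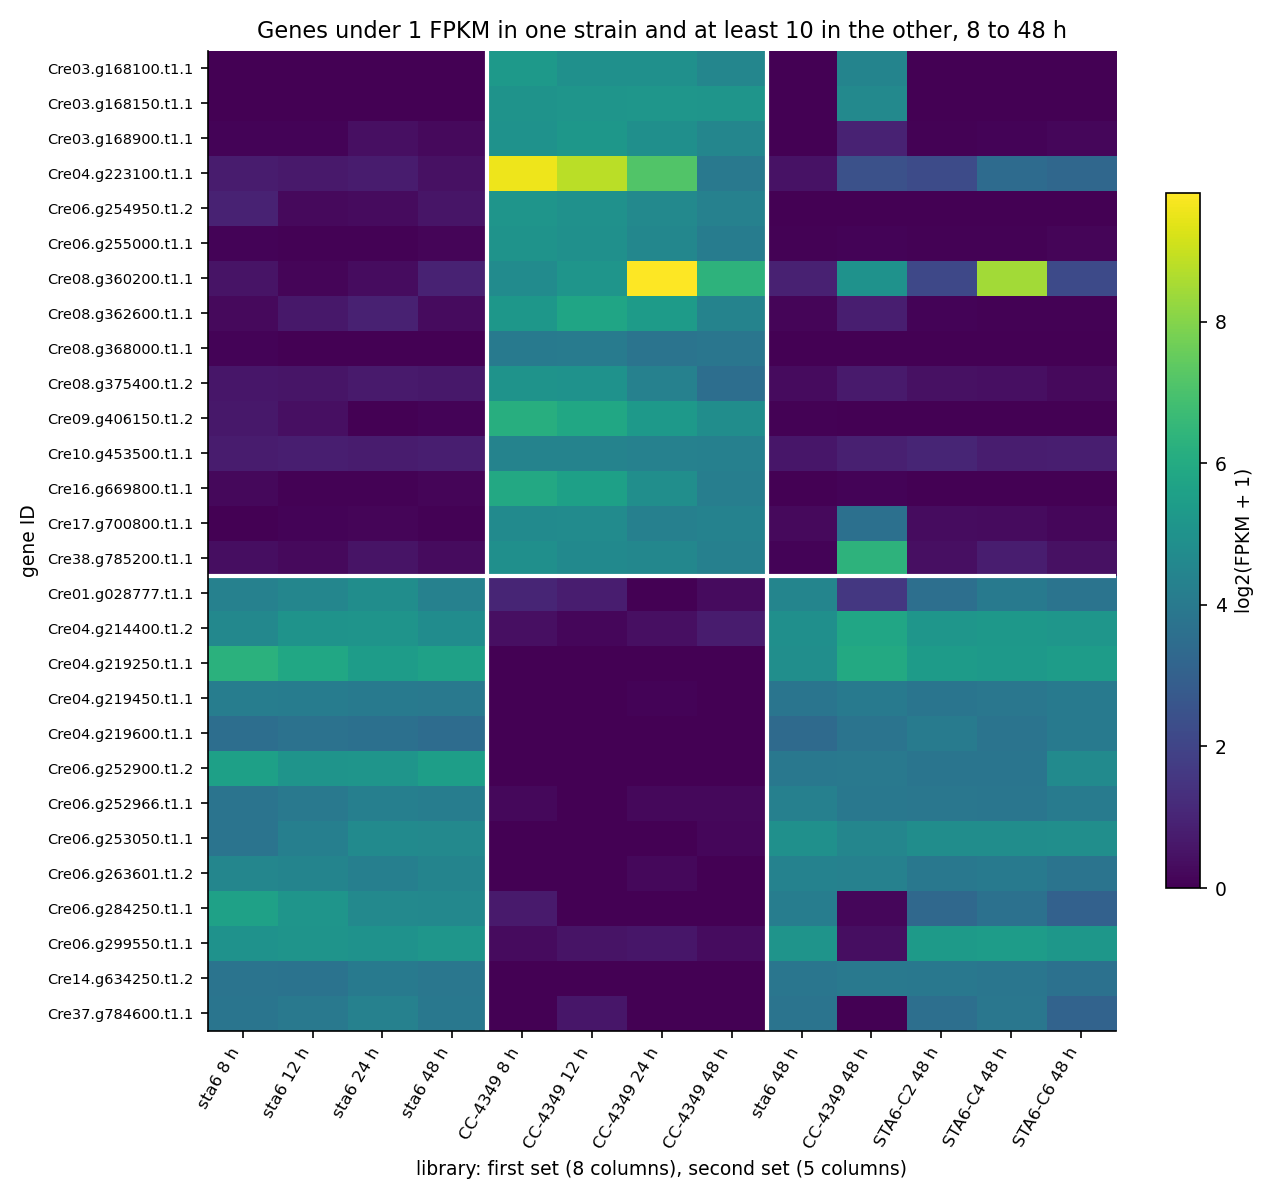
Level, as log2(FPKM + 1) by colour, of the 15 genes under 1 FPKM in sta6 (upper block) and the 13 under 1 in CC-4349 (lower block) in the 8 first-set libraries of 8 to 48 h and, to the right of the second white line, in 5 second-set libraries at 48 h. The second-set CC-4349 column is dark for 9 of the upper genes and bright for 10 of the lower ones.

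Called genes were not spread evenly along the gene order. In 684 windows of 20 neighbouring tested genes on chromosomes 1 to 17, placed by ID, the median window held 1 gene called lower and 0 called higher, and 147 windows held none. There were 13 windows with 5 or more called higher, 21 with 5 or more called lower and 6 with 10 or more called lower. A median difference below -1 was found in 6 windows, on chromosomes 13 and 17. On chromosome 17, 95 of 827 tested genes (11.5%) were called lower, against 5.72% of all genes tested. Chromosome 13, with 7.72%, was near that share, as were chromosomes 15 (7.05%) and 1 (6.58%). On chromosome 15, 25 of 227 were called higher, against 3.74% of all genes tested. The stretches described next were picked after their values were seen and have no test.

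From Cre13.g602650 to Cre13.g605700, 37 of 60 tested genes (61.7%) were called lower in sta6. The median difference was -1.10 over the 4 times, and -1.10, -1.03, -1.17 and -1.11 at 8, 12, 24 and 48 h. Its quartiles were -1.36 and -0.68, and 56 of the 60 genes had a lower mean in sta6. The 102 genes on its sides had a median of -0.31 and 4 falls. With quantile normalization the stretch's median was -0.95 and with equal medians -0.79. At 0 to 4 h the median was already -0.94. In the second set at 48 h it was -0.40, near the -0.24 of all genes. Of the 37 falls, 10 were below -1 in that set (27.0%, against 10.5% of all genes tested and 36.5% of all falls). The highest gene called lower there, Cre13.g603700, was at 292, 247, 192 and 203 FPKM in sta6 and at 694, 516, 432 and 450 in CC-4349, without overlap, a difference of -1.15 ± 0.0854 (SE, log2, limma adjusted p = 0.000486). In second-set sta6 at 48 h it was at 215 FPKM, within the first-set sta6 range, and in second-set CC-4349 at 319, below every first-set CC-4349 library.

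The stretch on chromosome 17 from Cre17.g698400 to Cre17.g706450 held 62 falls among 140 tested genes (44.3%) and 5 rises. Its median difference was -0.83, with quartiles of -1.50 and -0.33, so that it was less even than that on chromosome 13. Here the second set went with the first, with a median of -0.88 at 48 h. Of the 62 falls, 50 were below -1 in that set (80.6%, against 10.5% of all genes tested and 36.5% of all falls). The second-set sta6 library did not stand apart from the STA6 strains over these genes, with a median of -0.15 against their mean. The 62 falls had a median level of 2.32 FPKM in sta6 and 10.1 in CC-4349. The 100 genes on both sides had a median of -0.25 and 8 falls. Its highest gene called lower, Cre17.g698400, was an exception: it had 54.9, 103, 84.1 and 69.8 FPKM in sta6 and 411, 343, 303 and 154 in CC-4349, but 102 and 107 in the second set at 48 h.

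Rises were also gathered in some stretches. From Cre06.g252300 to Cre06.g253150, 9 of 20 tested genes (45.0%) were called higher, with a median difference of 0.87 over the stretch. On both sides 11 of 120 genes were called higher (9.17%, against 3.74% of all genes tested). CC-4349 was under 1 FPKM in all 4 libraries for 7 of the 20, and all 20 had at least 1 FPKM in second-set CC-4349 at 48 h. The median second-set difference of the 9 rises was -0.02, against 2.90 in the first set. From Cre04.g218200 to Cre04.g220100, 13 of 40 were called higher (32.5%), and on both sides 5 of 120 (4.17%). The median difference of all 40 was -0.12, and 23 of the 40 had a lower mean in sta6. All 13 were under 1 FPKM in first-set CC-4349, and 11 had at least 1 FPKM in its second-set library. The second-set median of these 13 was -0.72, against 2.37. Equal medians and quantile normalization left 21 and 27 falls in the chromosome 13 stretch, 46 and 49 in that of chromosome 17, 12 and 11 rises in that of chromosome 6 and 14 and 14 in that of chromosome 4.

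**Figure D4:**
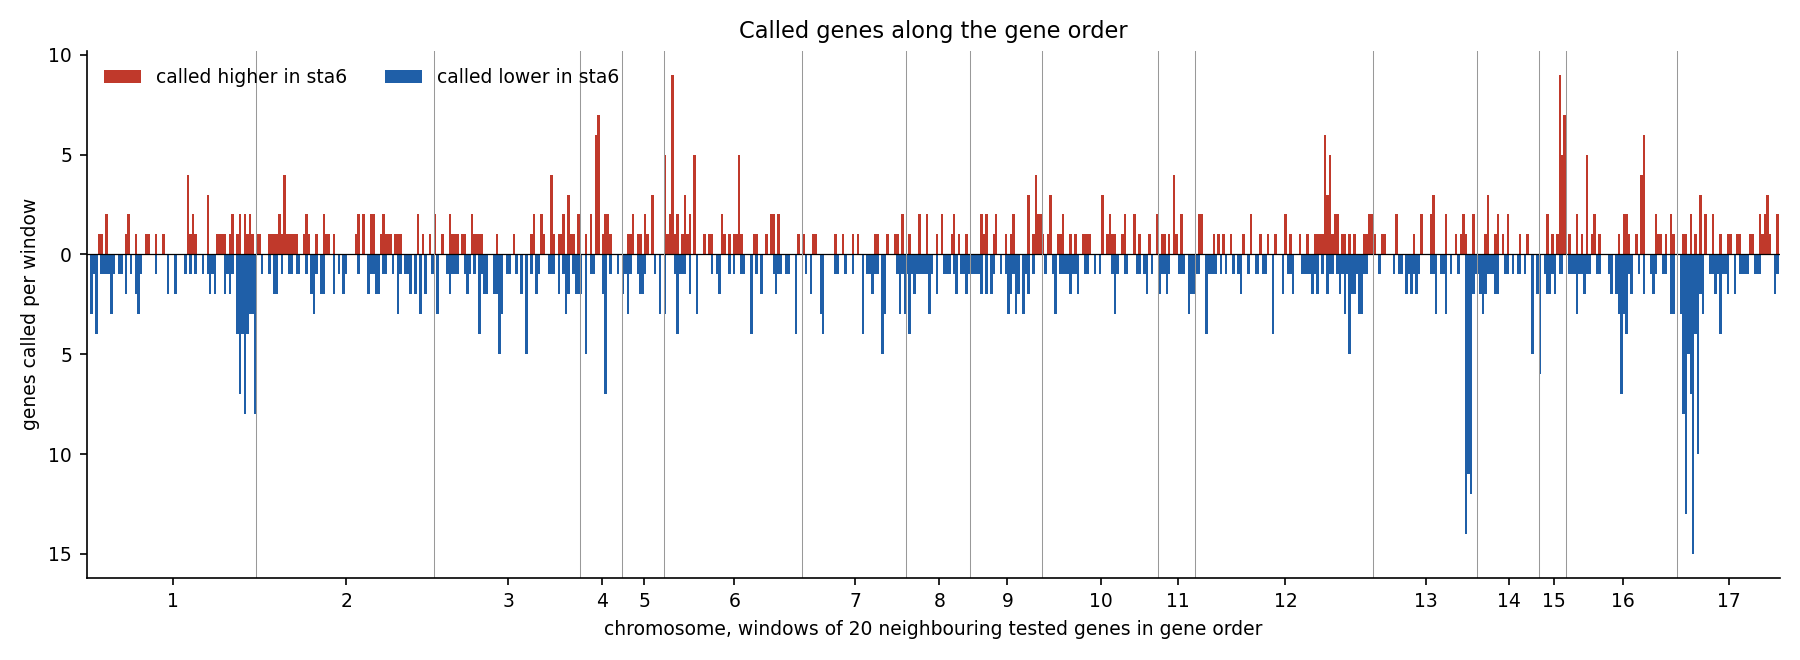
Number of genes called higher in sta6 (red, upwards) and lower (blue, downwards) in each of 684 windows of 20 neighbouring tested genes, in gene order along chromosomes 1 to 17. The tallest downward bars stand on chromosomes 13 and 17, and the median window holds 1 fall and 0 rises.

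**Figure D5:**
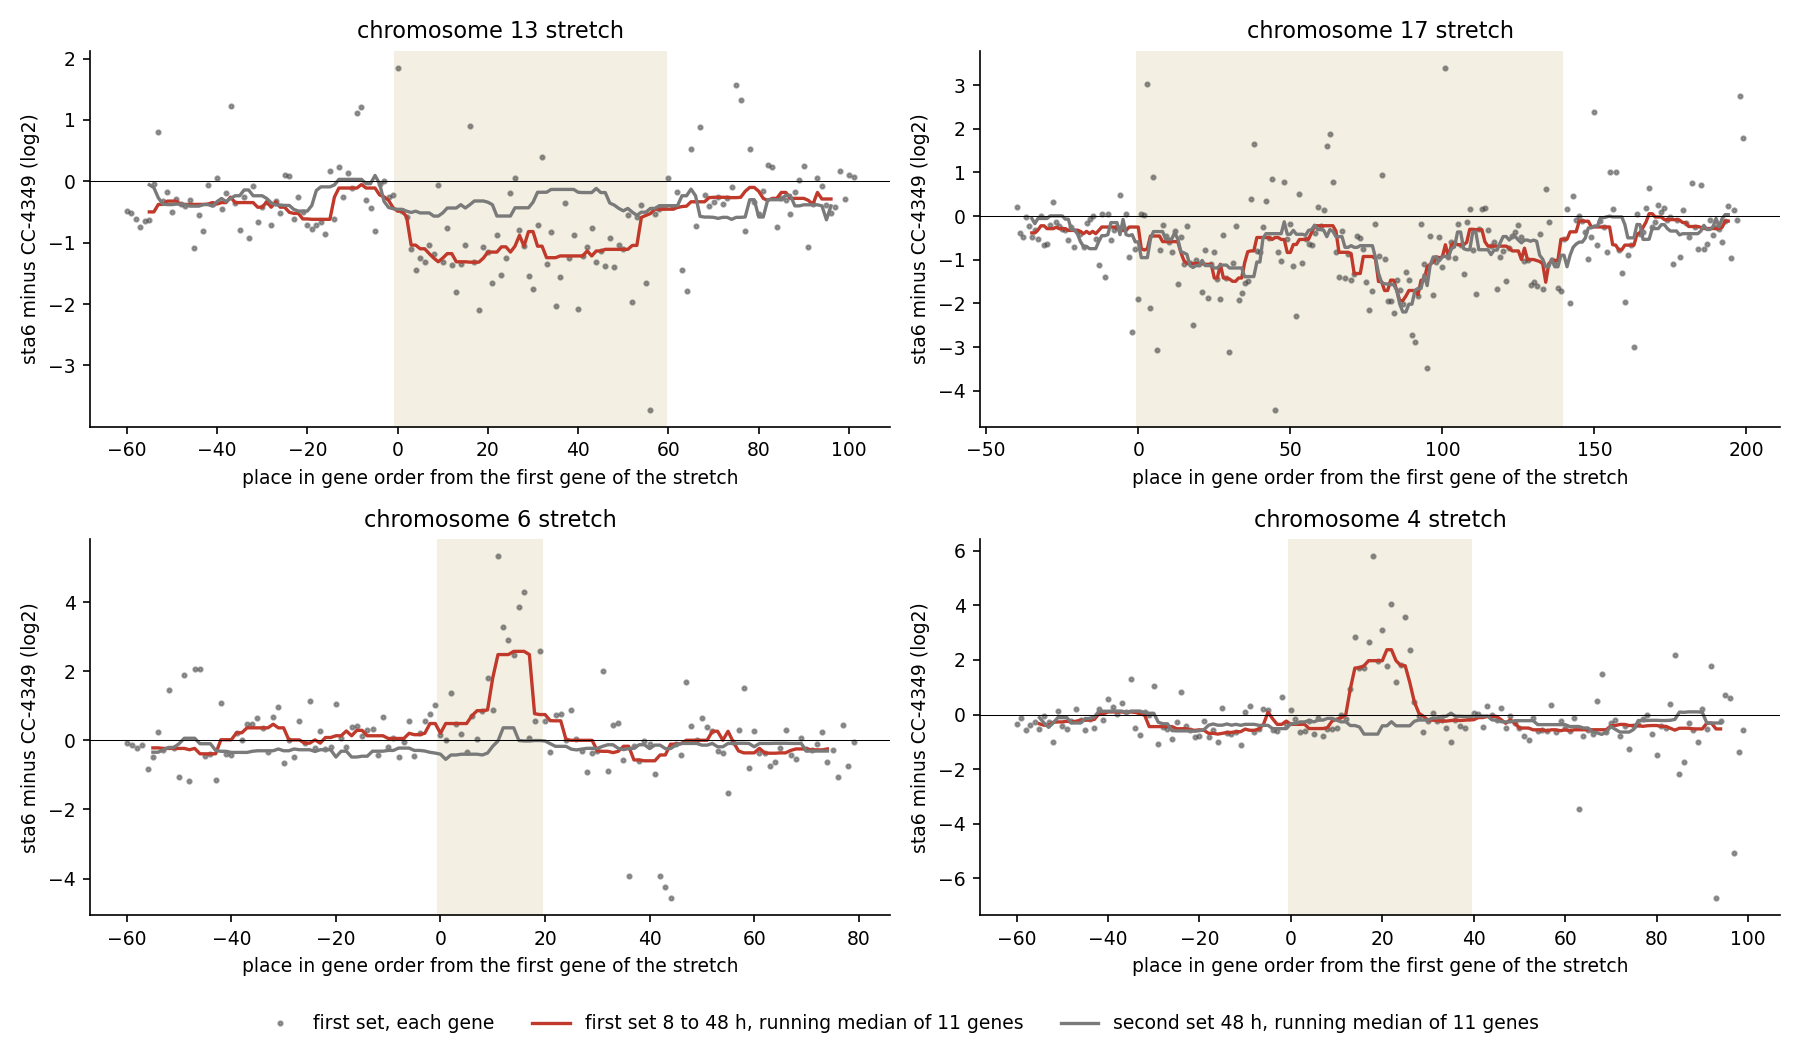
Difference between sta6 and CC-4349 (log2) by place in gene order for 4 stretches (shaded) and up to 60 genes on each side: first-set values of each gene (points), their running median over 11 genes (red) and that of the second set at 48 h (grey). Red and grey run together on chromosome 17 and apart on chromosomes 13, 6 and 4.

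Among genes that were abundant at 0 h, rises outnumbered falls in the mutant. Of 682 tested genes at 100 FPKM or more in both strains at 0 h, 90 were called higher in sta6 at 8 to 48 h (13.2%, against 3.74% of all genes tested) and 13 lower (1.91%, against 5.72%). The class was chosen with its values in view. Its median difference was 0.25, and -0.29 over all genes. The counts were 81 and 15 after quantile normalization, and 155 and 5 when medians were made equal. In the 90 genes CC-4349 kept a median of 6.89% of its 0 h level at 8 to 48 h (0.0429% to 160%), and sta6 20.5% (0.779% to 242%), an order that the choice of genes higher in sta6 largely fixes. In the test of the change from 0 to 4 h, 16 of the 90 (17.8%) were called higher, against 0.252% of all genes in that test. It uses the same late libraries from which the 90 were chosen. The second set at 48 h was past 1 the same way for 58 of the 90 (64.4%, against 4.71% of all genes tested and 37.6% of all rises).

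Cre12.g548400, one of the 90, fell far in CC-4349 and less in sta6. It was at 4407 FPKM in sta6 at 0 h and at 3343, 3486, 3642 and 3200 at 8, 12, 24 and 48 h. In CC-4349 it was at 4376 at 0 h and at 882, 170, 40.7 and 51.2 later, below all sta6 libraries. sta6 thus kept 77.5% of its 0 h level and CC-4349 6.54%. The difference was 4.66 ± 0.731 (SE, log2, limma adjusted p = 0.00356). At 48 h the second set had 4876 FPKM in sta6, 54.3 in CC-4349 and 3872 to 4707 in the STA6 strains, which sided with sta6. Cre12.g548950, in contrast, fell in both strains. From 8273 FPKM at 0 h it went to 139, 55.4, 31.5 and 31.7 in sta6, and from 10225 to 10.9, 3.19, 2.30 and 1.18 in CC-4349. The difference was 3.63 ± 0.117 (SE, log2, limma adjusted p = 4.51e-05). This error does not hold the spread of repeat columns, which in sta6 were up to 2.17 (log2) apart over the 4 times. The STA6 strains, at 6.78 to 24.0 FPKM at 48 h, lay between second-set CC-4349 at 2.87 and sta6 at 58.0.

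The change of the strain difference from 0 to 4 h to 8 to 48 h was tested over all 16 first-set libraries of the pair. A constant factor per gene between the column groups cancels in it, except through the pseudocount. Of 15108 genes tested, 38 rose in sta6 relative to CC-4349 (0.252%) and 23 fell (0.152%), and 1829 had an unadjusted p under 0.05. The count was unstable. It was 61 in all, but 8, 2, 2, 5 and 10 without the pair at 0, 2, 12, 24 or 48 h, 33 without that at 4 h, 104 without 0 and 0.5 h and 2 without time as a block. The second set, which has other libraries, gave the change from 0.5 and 4 h to 48 h. It was past 1 the same way for 33 of the 38 (86.8%, against 6.55% of genes tested) and for 18 of the 23 (78.3%, against 17.6%), and of the same sign for 38 of 38 and 20 of 23. Of the 38, 24 fell by more than 1 in CC-4349, with a median change of -2.25. In sta6 itself 14 of the 38 rose by more than 1 and 15 fell by more than 1, and the median of -0.15 lies between these. The 23 had a median change of -1.23 in sta6 and 0.41 in CC-4349. Of the 38, 26 were also called higher at 8 to 48 h (68.4%, against 3.74% of all genes tested) and 1 lower (2.63%, against 5.72%). Of the 23, 11 were also called lower (47.8%, against 5.72%). Both tests use the same late libraries, so this overlap is partly built in.

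Cre06.g283950 and Cre32.g781300 had the largest changes upwards, 7.57 ± 0.577 and 5.47 ± 0.854 (SE, log2, limma adjusted p = 0.00149 and 0.0358). Their second-set changes were 7.76 and 7.06. Downwards, Cre08.g362600 came on in first-set CC-4349 alone. At 8, 12, 24 and 48 h it had 35.3, 53.1, 40.6 and 19.8 FPKM in CC-4349, from 3.41 or less at 0 to 4 h. In sta6 it was at 0.201, 0.568, 0.843 and 0.215, below every CC-4349 library, a change of -3.92 ± 0.435 (SE, log2, limma adjusted p = 0.0141). The second set had 0.784 FPKM in CC-4349 and 0.0900 in sta6 at 48 h, and its change was 0.22.

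Cre17.g717950 turned over within the course. At 0, 0.5, 2 and 4 h it was at 141, 260, 152 and 50.2 FPKM in sta6 and at 56.6, 78.5, 27.1 and 23.3 in CC-4349. At 8, 12, 24 and 48 h it was at 20.4, 6.05, 5.43 and 4.02 in sta6 and at 33.7, 25.4, 9.24 and 6.64 in CC-4349. In the first set sta6 was the higher strain in every early pair and the lower in every late pair, although the late ranges overlapped. The change was -2.60 ± 0.382 (SE, log2, limma adjusted p = 0.0313), and the late difference alone, -0.97, was under the bound. The call was lost in 9 of 19 alternatives, among them the fit without time as a block (limma adjusted p = 0.532) and the first columns alone (0.0540). Second-set values at 48 h were 0.756 FPKM in sta6, 20.1 in CC-4349 and 0.148 to 0.634 in the STA6 strains. At 4 h that set had 51.2 in sta6 and 160 in CC-4349, the reverse of the first-set order at 4 h. At 0.5 h it had 192 in sta6 and 140 in CC-4349.

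Within 8 to 48 h the strain difference moved as well. Between 8 and 12 h on the one side and 24 and 48 h on the other, 227 genes rose in sta6 relative to CC-4349 (1.54%) and 40 fell (0.272%), and 3602 had an unadjusted p under 0.05. With 2 residual degrees of freedom this count rests on single pairs: it was 0 without the pair at 8 h and 0 without that at 12 h (limma, with 1875 and 2858 genes at an unadjusted p under 0.05), 84 without 48 h and 518 without 24 h. A lone pair on one side is there assumed to vary as the other side does. Of the 227, 206 were lower in sta6 at 8 and 12 h and 44 at 24 and 48 h, and the median difference went from -0.92 to 0.45. In CC-4349 134 of them fell by more than 1, and in sta6 59 rose by more than 1. The 40 went from a median of 0.60 to -0.80. In the mean over the 4 times 11 of the 227 were called higher (4.85%, against 3.74% of all genes tested) and 20 lower (8.81%, against 5.72%), shares near those of all genes.

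Cre14.g617450 and its neighbour Cre14.g617400 had the largest rises within the course. Cre14.g617450 went from 7.91 and 12.3 FPKM at 8 and 12 h to 72.9 and 179 at 24 and 48 h in sta6. In CC-4349 it went from 226 and 155 to 103 and 109, so that the order of the strains was turned at 48 h. Its change was 4.22 ± 0.506 (SE, log2, limma adjusted p = 0.0328). Cre14.g617400 moved alike, from 6.51 and 11.9 to 53.9 and 112 in sta6 and from 215 and 135 to 94.7 and 111 in CC-4349, a change of 3.73 ± 0.510 (SE, log2, limma adjusted p = 0.0389). The calls were lost without the pair at 8 or 12 h, as were all others. In the second set both genes were low in all strains at 4 h, with 6.36 FPKM of Cre14.g617450 in sta6 and 6.64 in CC-4349. At 48 h it was high in sta6 (142) and CC-4349 (352) but at 3.04 to 4.44 in the STA6 strains.

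The largest falls within the course were Cre07.g335200 and Cre01.g050268. Cre07.g335200 peaked in first-set sta6, at 921, 716, 278 and 255 FPKM at 8, 12, 24 and 48 h. In CC-4349 it stood at 144, 167, 222 and 242, so that the groups did not overlap, though the 48 h values of 255 and 242 were close. The change was -2.18 ± 0.228 (SE, log2, limma adjusted p = 0.0307). It had climbed from 127 FPKM at 0 h to 616 at 4 h in sta6. At 4 h, a time at which the first set had 616 against 149, the second set had 388 in sta6 and 421 in CC-4349. The STA6 strains had 500 to 559 at that time. At 48 h the second set had 277 in sta6, 170 in CC-4349 and 269 to 359 in the STA6 strains. Cre01.g050268 was low throughout, at 2.02, 1.80, 0.860 and 1.22 FPKM in sta6 and 1.13, 0.670, 3.55 and 6.77 in CC-4349, with overlapping groups and repeat columns up to 1.86 (log2) apart. Its change was -2.17 ± 0.237 (SE, log2, limma adjusted p = 0.0307). In the second set at 48 h it was at 0.419 FPKM in sta6 and 0.497 in CC-4349.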

How the data were processed

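RNA-seq of total RNA was deposited as 1 table of 17301 genes by 47 columns, which the columns' names tie to 31 samples; 0 columns were left without a sample. The deposited values were taken as FPKM from their range and steps, as headers name no unit (RPKM is not distinguishable). Per the submitters' processing notes, Bowtie was used. Version, build, annotation, counter and depth: not given in the sources used here.

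The pair of columns of each first-set sample was averaged. A gene was tested if it reached 1 FPKM in 3 or more of the fitted libraries. Tests were run on log2(FPKM + 1) with limma 3.58.1 (R 4.3.3, trend and robust), with time as a block, and p-values were adjusted by Benjamini-Hochberg. Log2 fold changes on this scale understate those of low genes. Residual degrees of freedom were 3 for the strains, 6 for the change from 0 to 4 h and 2 for the change within 8 to 48 h. The steps were tested on simulated data. Time pairs the strains by design. The value of 1 read was recovered per gene from low values that were whole multiples, up to 6, within 0.02 of the multiple. Column groups were compared after the median log2 ratio over genes was subtracted. For first-set sta6 only the first column of each sample was used, as the second columns are deeper. Summaries used Python 3.11.15 with pandas 2.3.3.

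The genes named were to be the largest annotated ones; with no symbols, the 2 largest by ID per direction were taken (for the strains also with equal sign in all pairs, no overlap and a level above the median). Genes of the strain-restricted lists, the classes and the stretches were named after their values were seen. The members, rules and lists were chosen with earlier results of these data known. Of the IDs, 12666 (73.2%) match a locus tag of the RefSeq table (assembly v5.5), used only for gene order; 0 of its entries hold a symbol. Alternatives were other scalings, filters, pseudocounts (0.1 and 5), single columns, left-out times, fits without the block and other bounds.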

Additional observations from a re-analysis of the deposited data

Results flagged for a closer look

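The strain difference changed between 0 to 4 h and 8 to 48 h, by a test of the change itself, for 61 genes. With 1 time left out that count was 2 to 88. Among the 61 the change was 7.57 for Cre06.g283950, 5.47 for Cre32.g781300, -3.92 for Cre08.g362600 and -2.60 for Cre17.g717950 (log2). In the second set the change of Cre08.g362600 was 0.22. The strain difference changed between 8 and 12 h and 24 and 48 h for 267 genes, a count that rested on single pairs. Here the change was 4.22 for Cre14.g617450, 3.73 for Cre14.g617400, -2.18 for Cre07.g335200 and -2.17 for Cre01.g050268 (log2).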

How the results depend on the processing

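For the strains at 8 to 48 h the count of 1394 became 2207 with a pseudocount of 0.1, 570 with 5, 300 with a bound of 2 and 8663 without a bound. Leaving out one time gave 1336 to 1506, and the other alternatives run stayed within 1.5 times, among them 1371 without the replicate block and 1540 and 1623 with the first or second columns alone. For the change from 0 to 4 h the count of 61 became 34 with a pseudocount of 0.1, 28 and 25 with the first or second columns, 104 without 0 and 0.5 h, 40 without 2 and 4 h, 2 without the replicate block that pairs the strains by time, and 2 to 88 with one time left out. For the change within 8 to 48 h the count of 267 became 32 without a filter on low values, 131 with a pseudocount of 5, 112 and 58 with the first or second columns and 0 to 518 with one time left out (limma; at least 1875 genes at an unadjusted p under 0.05 in each of these). The cause was not tested, beyond the fewer samples left. The 4 genes named for the strains were called in each of 17 alternatives; of those named for the changes, Cre32.g781300 lost its call in 12 of 19, Cre17.g717950 in 9 of 19, Cre08.g362600 in 5 of 19, Cre14.g617400 in 9 of 12, Cre14.g617450 in 7 of 12, Cre07.g335200 and Cre01.g050268 in 5 of 12 each and Cre06.g283950 in none of 19, and no sign turned. Leaving out genes listed at 0 was chosen after seeing the data. Read depth is not given, so low FPKM values carry an unknown counting error.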
